A study of Mus musculus with 10 samples.

Results

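Cathepsins, legumain and cystatin C were examined in CD8+ cDC1 with and without the phosphatase Ppef2. Members were taken by gene symbol: Ctss, Ctsl, Ctsb, Ctsh, Ctsc and Ctsz (cysteine cathepsins of the papain family), Lgmn (legumain), Ctsd (an aspartic protease), Ctsa (a serine carboxypeptidase) and Cst3 (cystatin C). All 10 of them were found among the 10767 genes of the normalized mRNA-sequencing table. Values are normalized counts, meaning reads per gene after correction for library depth.

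Cells were sorted from spleens of untreated Ppef2+/+ and Ppef2-/- mice that were 8 to 13 weeks old and matched for age and sex. Ppef2-/- mice carry a knock-out-first allele in all cells, in which a gene trap follows exon 4 and exon 5 is floxed. They descend from chimeras made with JM8A3.N1 embryonic stem cells and crossed to C57BL/6. Live MHCII+CD11c+CD11b-CD8+ cells were sorted to a purity above 95%. Each genotype had 5 libraries made from pools of 3 mice, and a Ppef2+/+ and a Ppef2-/- library shared each sort number. The pools make each library an average over mice, so that differences between single animals are not seen.

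Cathepsins are made as inactive proenzymes and become active in acidic endosomes and lysosomes. In DCs they trim the invariant chain CD74 off MHC class II, cut ingested proteins into peptides and process endosomal Toll-like receptors. Cystatin C is a small secreted protein that blocks papain-like cathepsins and, through a separate site, legumain, and its mRNA is known to be abundant in cDC1.

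The sort and the knockout were checked first. All 16 cDC1 markers were in the table, among them Xcr1, Clec9a, Batf3 and Wdfy4, and their sum was 88266 to 91474 normalized counts in Ppef2+/+ and 87950 to 91157 in Ppef2-/- libraries. Of 18 macrophage and monocyte markers, which matter here because such cells are rich in cathepsins, 14 were measured, with sums of 2148 to 2464 and 2097 to 2413. The 3 complement genes C1qa, C1qb and C1qc, which mark macrophages, had means of 28.0, 27.9 and 26.4, and Mertk, Fcgr1, Marco and Siglec1 were not in the table. Adgre1 (43.1), Spic (38.5) and Cd5l (12.6) of this list were low as well. Its genes Lyz2 (794.8), Hmox1 (473.8), Csf1r (270.2) and Vcam1 (227.1) were higher. Of the B cell list, 2 of 10 genes were measured (163.8 to 183 against 161.9 to 182 in sum), of the T and NK cell list 1 of 12 (28.1 to 43.5 against 35.9 to 51.3), of the neutrophil list 1 of 10 (7.78 to 21.2 against 1 to 13.2) and of the erythroid and platelet list 5 of 10 (141.6 to 231 against 151.7 to 241.1). The cDC2 list (10 of 11 genes) summed to 1156 to 1613 against 1142 to 1599. The pDC list (9 of 10) summed to 1370 to 1508 in Ppef2+/+ against 1205 to 1341 in Ppef2-/-, which did not overlap. The deposited values lack the spread between sorts (below), and in them the genotypes did not overlap in 6.18% of all single genes. The share over lists of this size was not computed. Ppef2 itself was between 162.4 and 243 in Ppef2+/+ and between 1 and 36.7 in Ppef2-/- libraries. The value of 1 is the floor. Where sort means were removed (below), deposited values do not give the level left in a single library. The paper reports no reads of Ppef2 above background in Ppef2-/- DCs. Library totals of the deposited values were 5295570 to 5482320, but as these values are corrected for depth, the totals do not show it. In bulk samples like these, fewer cells of a type and less RNA per cell cannot be told apart.

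The deposited values of nearly all genes carry no difference between the means of sorts. For 10721 of the 10767 genes the sum of both libraries of a sort was the same in every sort within 1e-05 of its size. The other 46 genes all have a value at the floor of 1. In the 10721 genes, the average over the pair had been set to one level. The difference between both genotypes of a sort is preserved by this step on the linear scale. However, the spread among libraries of a genotype is smaller than it was, and both genotypes have mirrored values and the same SD.

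The promoters of the lysosomal members were searched for the letters CACGTG, the core of the element that TFEB, TFE3 and MITF bind, since these factors are known to drive lysosomal genes. RefSeq windows (GRCm38.p6, 250 bases before to 50 bases after the start) were available for 8 members. The letters read the same on both strands, and 4 of the 8 members held them: Ctsd, Ctsa, Lgmn and Ctsl. Of the 8311 genes of the expression table with such a window, 12.1% held the letters in at least one window, and of all 32851 windows 7.15%. Of 106 genes from lists of other lysosomal genes and their regulators, 22 held them (20.8%). The stretches are shown 5′ to 3′ on the strand of the gene with CACGTG in capitals, at chr7:142387908-142387937 and chr7:142388055-142388077 (Ctsd, minus strand), chr2:164833749-164833778 and chr2:164833766-164833795 (Ctsa, plus strand, second of 2 starts), chr12:102439124-102439153 (Lgmn, minus strand, second of 2 starts) and chr13:64370739-64370768 (Ctsl, minus strand).
Ctsd, near: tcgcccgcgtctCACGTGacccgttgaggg
Ctsd, far: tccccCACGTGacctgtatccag
Ctsa, before the start: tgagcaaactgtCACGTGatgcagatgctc
Ctsa, after the start: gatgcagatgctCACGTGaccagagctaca
Lgmn: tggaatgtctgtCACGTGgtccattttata
Ctsl: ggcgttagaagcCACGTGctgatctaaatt

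The near Ctsd match began 98 bases before the start and the far one 245 bases before it. In Ctsa one match began 12 bases before the start and the other 5 bases after it, so both shown stretches overlap. The Lgmn and Ctsl matches began 49 and 236 bases before the start. These starts are those of the RefSeq windows. In GENCODE M21 the genes begin further out, at 142388038 (Ctsd), 164832873 (Ctsa), 102439813 (Lgmn) and 64370890 (Ctsl). By those bounds all matches except the far Ctsd one lie inside the gene. Windows of Cst3, Ctss, Ctsz and Ctsc held no such letters, and Ctsb and Ctsh had no window. A match is a description of the sequence, and binding was not measured.

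The order of the members was dominated by the inhibitor. Cst3 had a mean of 30938 normalized counts over the 10 libraries and ranked 9 among all genes. It made up 74.4% of the counts of all members and had 2.91 times the summed counts of the 9 proteases. Ctss (2761), Ctsb (2741), Ctsz (1717) and Ctsh (1508) followed, then Ctsc (810.3) and Ctsa (665.9), while Lgmn (210.8), Ctsd (161.9) and Ctsl (63.5) were lowest. Together, the members held 0.772% of all normalized counts. The median gene of the table had a mean of 170.1, so that Ctsd and Ctsl lay below it.

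Levels of different genes were compared per kilobase of merged exon (GENCODE M21, GRCm38). Cst3, on chromosome 2 from 148871722 to 148875692 (minus strand), was at 24313 ± 1301 (SD, n = 5) normalized counts per kb in Ppef2+/+ and 24562 ± 1301 in Ppef2-/- cDC1. Ctss, the main protease for the last steps of invariant chain removal in DCs, came next with 2046 ± 103 and 2020 ± 103. Ctsz, a carboxypeptidase, had 1186 ± 30.6 and 1197 ± 30.6.

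The other proteases were lower. Ctsb was at 448.8 ± 11.2 per kb in Ppef2+/+ and 457 ± 11.2 in Ppef2-/-, and the aminopeptidase Ctsh at 333.7 ± 9.53 and 336.7 ± 9.53. Ctsa (141.8 ± 4.52 and 140.6 ± 4.52) and Ctsc (139.1 ± 8.15 and 139.9 ± 8.15) did not differ beyond their spread. Lgmn was at 92.2 ± 7.14 and 89.3 ± 7.14, Ctsd at 70.0 ± 6.61 and 67.7 ± 6.61, and Ctsl at 9.79 ± 1.18 in both.

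With the exception of Ctsa and Ctsc, the ranges of neighbours in this order did not overlap in either genotype in the deposited values, which lack the spread between sorts, and no value of a member was at the floor of 1. The order depends on the exon length in part. On the longest transcript linked to a RefSeq mRNA, Ctsh was at 932.6 per kb and above Ctsb at 577.8, Ctsc (251.6) was above Ctsa (182.7), and Ctsl rose to 32.2, where it was still the lowest. Reads were not counted by strand in a stated way, and Ctsb shares 774 bases of exon with Fdft1 on the opposite strand (mean 114.4), Ctsa 495 bases with Pltp (mean 14.9), and Ctsl 1742 bases with Gm47123, which was not in the table. Ctsd shares 808 bases with Gm49369 on the same strand.

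**Figure D1:**
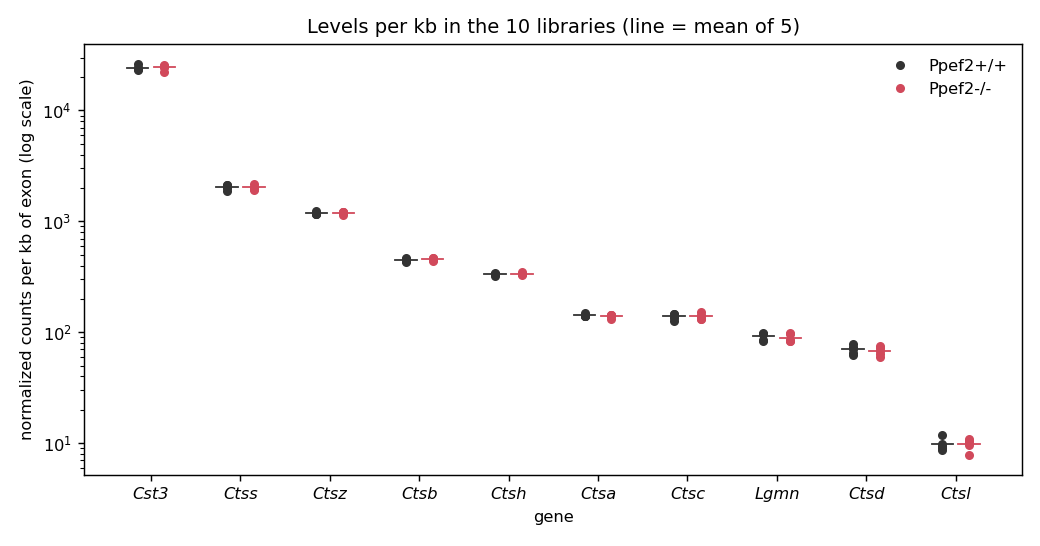
Normalized counts per kb of merged exon (log axis) of each gene in the 5 Ppef2+/+ (grey) and 5 Ppef2-/- (red) libraries, with the mean of 5 libraries as a line. Cst3 stood at 24313 per kb in Ppef2+/+ and Ctsl at 9.79, and both genotypes overlapped in each of the 10 genes.

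Next, both genotypes were compared for each gene, as absence of Ppef2 might change the proteolytic equipment of cDC1. None of the 10 members passed the test. In limma on log2(normalized count + 1), fitted over all 10767 genes, 0 of the 10 had an adjusted p under 0.05 against 0.957% of all genes, and 0 had an unadjusted p under 0.05 against 17.5% of all genes. In the same fit with a block for the sort, 0 of 10 had an adjusted p under 0.05 against 0.00929%, and 0 an unadjusted p under 0.05 against 4.29%. The ratio of the Ppef2-/- to the Ppef2+/+ mean lay between 0.967 (Ctsd) and 1.018 (Ctsb). The median log2 fold change was 0.0021 over the members and 0.00089 over all genes. On this scale the change of low genes such as Ctsl is understated slightly. Values of both genotypes overlapped in all 10 members, while they did not overlap in 6.18% of all genes.

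Ctss contributes to peptide loading of MHC class II. Its normalized counts were 2729, 2881, 2919, 2565 and 2800 in Ppef2+/+ cDC1 of sorts 1 to 5, and 2793, 2642, 2604, 2957 and 2722 in Ppef2-/-. Ppef2-/- was higher in sorts 1 and 4 and lower in the other sorts. The mean difference was −34.8 ± 280.2 normalized counts (SD, n = 5 sorts), with p = 0.875 in the exact two-sided test that exchanges genotypes within sorts. With 5 sorts, this test cannot give a p under 0.05. The log2 fold change was −0.018 with an SE of 0.041 (limma, adjusted p = 0.864).

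Ctsl, the endopeptidase that takes the place of Ctss in the thymic cortex, was the member with the lowest level. Ppef2+/+ libraries had 56.8, 59.0, 64.2, 61.4 and 76.4 normalized counts in sorts 1 to 5, and Ppef2-/- libraries 70.2, 67.9, 62.8, 65.5 and 50.6. In the deposited values sort 5 had the largest difference, −40.6% of the gene's mean, compared to −2.12 to 21.2% in the other sorts. With the sort means put back (below), sort 5 did not stand apart. The log2 ratio of Ppef2-/- to Ppef2+/+ was then 0.63 in sort 1 and −0.52 in sort 5. The mean difference was −0.196 ± 24.2% (SD, n = 5 sorts, exact p = 1 within sorts), and the log2 fold change −0.0041 with an SE of 0.11 (limma, adjusted p = 0.989).

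Ctsb, an endopeptidase and dipeptidase, was between 2623 and 2801 in Ppef2+/+ and between 2680 and 2858 in Ppef2-/- libraries. Its differences by sort were 8.55, 1.024, −0.634, 4.56 and −4.44% of the mean. The average of 1.81 ± 4.97% (SD, n = 5 sorts) was within the spread between sorts, with exact p = 0.4375 within sorts. Among the members this was the smallest exact p and Ctsb had the highest log2 fold change, 0.026 with an SE of 0.026 (limma, adjusted p = 0.653).

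Ctsh trims peptides from their amino terminus. It ranged from 1433 to 1552 in Ppef2+/+ and from 1465 to 1583 in Ppef2-/- libraries. In sorts 1, 2 and 5 both genotypes were within 0.39% of each other, while the difference was 9.995% in sort 3 and −5.78% in sort 4. The log2 fold change was 0.013 with an SE of 0.029 (limma, adjusted p = 0.858).

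Ctsc, or dipeptidyl peptidase I, activates granule serine proteases. Its normalized counts were 815.9, 849.4, 784.1, 739.1 and 851.3 in Ppef2+/+ and 804.7, 771.2, 836.4, 881.4 and 769.3 in Ppef2-/- libraries of sorts 1 to 5. Ppef2-/- was lower in sorts 1, 2 and 5 and higher in sorts 3 and 4. The mean difference was 0.572 ± 11.7% (SD, n = 5 sorts, exact p = 1 within sorts).

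Ctsz was between 1675 and 1777 in Ppef2+/+ and between 1657 and 1758 in Ppef2-/- libraries, and its mean difference was 0.965 ± 5.13% (SD, n = 5 sorts, exact p = 0.625 within sorts). Legumain, which cuts after asparagine and starts the breakdown of the invariant chain and of some antigens, showed larger differences of both signs. The difference of Lgmn was 16.4 and 11.3% in sorts 1 and 5, and −12.6, −16.7 and −14.3% in sorts 2, 3 and 4.

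Ctsd, which needs no cysteine for its activity and is not a target of cystatin C, had the lowest log2 fold change of the members, −0.049 with an SE of 0.080 (limma, adjusted p = 0.801). Values in sorts 1 to 5 were 145.9, 175, 153.1, 165.3 and 184 in Ppef2+/+ and 177.9, 148.8, 170.7, 158.5 and 139.8 in Ppef2-/- libraries. Sorts 1 and 3 were higher and sorts 2, 4 and 5 lower in Ppef2-/-.

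Ctsa, the protective protein of lysosomal beta-galactosidase and neuraminidase, was higher in Ppef2-/- in 4 of 5 sorts, by 0.158 to 3.26%. Sort 3 went the other way, with 706.1 in Ppef2+/+ and 625.8 in Ppef2-/-, a difference of −12.1%. The average over all sorts was therefore −0.849 ± 6.41% (SD, n = 5 sorts, exact p = 1 within sorts).

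Cst3 was higher in Ppef2-/- in 4 of 5 sorts as well. cDC1 of Ppef2+/+ mice had 30603, 30831, 29238, 29739 and 33493 normalized counts and Ppef2-/- libraries 31273, 31045, 32638, 32137 and 28382. The differences of the first 4 sorts were 670.2, 214.6, 3400 and 2399, and that of sort 5 was −5111. The mean of 314.5 ± 3295 (SD, n = 5 sorts) had an exact p of 0.8125 within sorts, and the log2 fold change was 0.015 with an SE of 0.043 (limma, adjusted p = 0.898). Without both libraries of sort 5 it was 0.078 (limma, adjusted p = 0.172), the smallest adjusted p of Cst3 in any fit.

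The size of difference that these data leave room for was taken from the blocked fit on the deposited values. This fit keeps the pairs and counts the removed sort means as parameters. Its 95% intervals of the log2 fold change were −0.11 to 0.13 for Cst3, −0.13 to 0.096 for Ctss, −0.074 to 0.13 for Ctsb, −0.091 to 0.12 for Ctsz and −0.094 to 0.12 for Ctsh. They were −0.14 to 0.11 for Ctsa, −0.13 to 0.14 for Ctsc, −0.25 to 0.15 for Lgmn and −0.28 to 0.18 for Ctsd. Ctsl, with the fewest counts, had the widest interval, −0.34 to 0.33. With the sort means put back (below), the blocked interval was −0.28 to 0.42 for Ctsl and −0.15 to 0.096 for Ctsc. It was −0.24 to 0.16 for Lgmn, −0.29 to 0.16 for Ctsd and −0.13 to 0.11 for Ctsa. A missing call does not show that the genotypes were equal.

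**Figure D2:**
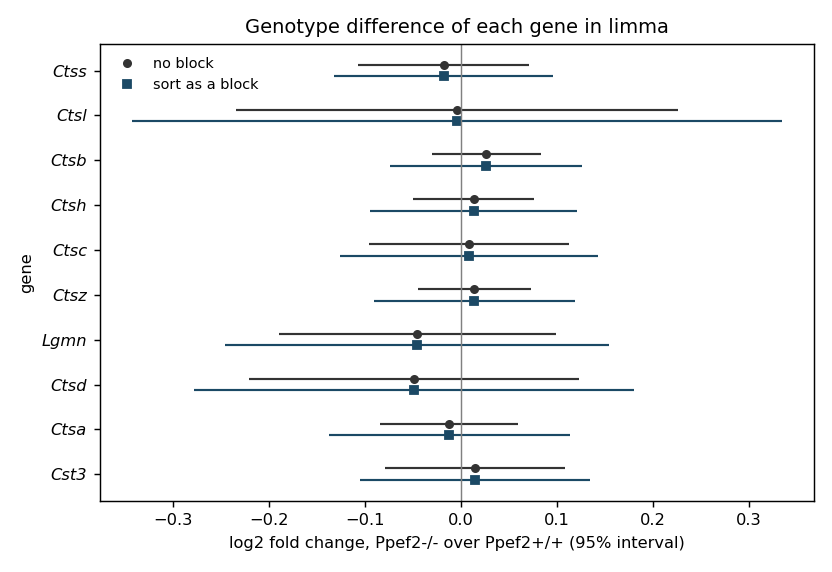
Log2 fold change of Ppef2-/- over Ppef2+/+ (x axis) with 95% interval for each gene in limma, without a block (grey circles) and with the sort as a block (blue squares). All 20 intervals include 0, and those of Ctsl, Ctsd and Lgmn are the widest.

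The members were also compared sort by sort. In sort 1, 9 of 10 were higher in Ppef2-/- and 1 was lower (Ctsc). In sorts 2 and 3, 5 were higher and 5 lower, and in sort 4, 7 were higher and 3 lower. In sort 5, 2 were higher (Lgmn and Ctsa) and 8 lower.

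The median difference of the members was 3.03, −0.534, 2.09, 4.65 and −5.71% of the gene mean in sorts 1 to 5. Over all genes it was −0.144, −0.377, 0.0783, 0.907 and 0.00783%. As the members share a library, they are not independent, and these medians come without a test. In sort 5 the summed difference was −3524 for the 16 cDC1 markers and −85.0 for the macrophage and monocyte markers. It was 442.8 for the cDC2 markers and −302.9 for the pDC markers. In sort 4 these differences were 2891, 13.3, −470.4 and −177.6. The sums of these lists are unlike in size. In the same order they were 88266 to 91474, 2148 to 2464, 1156 to 1613 and 1370 to 1508 in Ppef2+/+ libraries. Their part in the differences of the members was not tested. The typical size of a difference within a sort, taken without its sign, was 6.74% of the gene mean (median over the members and sorts), compared to 11.2% over all genes.

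**Figure D3:**
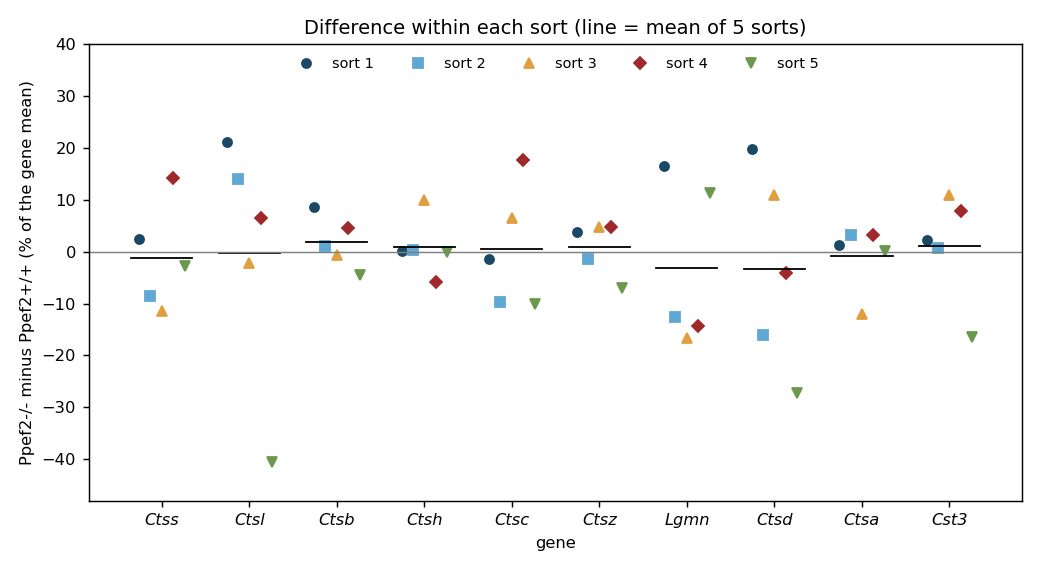
Ppef2-/- minus Ppef2+/+ within each of the 5 sorts, in percent of the gene's mean, with the mean of 5 sorts as a line. Each gene has sorts on both sides of 0, and sort 5 (green triangles) is the lowest for Ctsl, Ctsb, Ctsc, Ctsz, Ctsd and Cst3.

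Genes with similar differences over the 5 sorts, by root mean square distance to the median of the members in log2 and among genes with a mean of at least 100, included Pi4ka (distance 0.015), Mprip (0.019), Mknk1 (0.020) and Hnrnpf (0.024). This is a description over 5 differences.

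Other genes of the lysosome and of its inhibitors were counted in 8 lists. Of 163 listed genes outside the members, 138 were measured, and 2 of them had an adjusted p under 0.05 in limma without a block (0.957% of all genes), 1 in each direction. With the sort as a block there were 0, with 7 of 138 at an unadjusted p under 0.05 (4.29% of all genes). After any 1 of the 10 libraries was left out, there were 0 as well.

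Zkscan3, a zinc finger protein known to repress lysosomal and autophagy genes, was higher in Ppef2-/-, 261.9 ± 10.6 against 223.4 ± 10.6 normalized counts (SD, n = 5). In the deposited values, Ppef2-/- libraries had 247.7 to 274.4 and Ppef2+/+ libraries 210.9 to 237.6. Ppef2-/- was higher in 5 of 5 sorts, which in mirrored values is the same observation, met by 6.18% of all genes. The log2 fold change was 0.23 with an SE of 0.046 (limma, adjusted p = 0.042), and in the blocked fit its adjusted p was 0.995. With the sort means put back from recovered reads (below), the ranges of Zkscan3 overlapped, 208.2 to 344.1 in Ppef2-/- and 175.6 to 280.6 in Ppef2+/+. Man2b2, a lysosomal mannosidase, was lower, 357.5 ± 12.95 against 405 ± 12.95 (SD, n = 5), in 5 of 5 sorts. Its log2 fold change was −0.18 with an SE of 0.037 (limma, adjusted p = 0.048, and 0.995 in the blocked fit). With the sort means put back, the ranges of Man2b2 overlapped as well, 321.8 to 382.2 in Ppef2-/- and 377.3 to 438.1 in Ppef2+/+.

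Among 8 measured genes of the 21 other inhibitors, 0 passed. An unadjusted p under 0.05 in limma was reached by 3 of the 8, all higher in Ppef2-/- (17.5% of all genes). In the blocked fit it was reached by 3 as well (4.29% of all genes). Serpina3g, a cytosolic serpin that blocks cathepsins leaked from lysosomes, had the lowest p of the list. It was at 1167, 1200, 1152, 894.4 and 1106 in Ppef2+/+ and at 1305, 1273, 1320, 1578 and 1367 normalized counts in Ppef2-/- libraries of sorts 1 to 5. The groups did not overlap in the deposited values, as in 6.18% of all genes, and sort 4 had the largest difference.

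The log2 fold change of Serpina3g was 0.31 with an SE of 0.077 (limma, adjusted p = 0.076). With the block its unadjusted p was 0.00071 and its adjusted p 0.711. The related Serpina3f was at 14.0 to 28.7 in Ppef2+/+ and 28.1 to 42.8 in Ppef2-/- libraries (log2 fold change 0.74 with an SE of 0.20, limma adjusted p = 0.091). Both belong to a family of near-identical genes, so reads may have been split between them and these values are uncertain. The median log2 fold change of the 8 genes was 0.099.

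No gene passed among 15 other proteases, 36 genes of the lysosomal membrane and sorting, 18 of the V-ATPase, 10 of MHC class II and 7 of the endosomal Toll-like receptors. In the same order, 1, 9, 5, 2 and 2 genes had an unadjusted p under 0.05 in limma (17.5% of all genes), and the medians of the log2 fold change were 0.016, 0.014, 0.053, 0.031 and 0.016. Of the 35 hydrolases, Man2b2 was the only one that passed, with 4 at an unadjusted p under 0.05 and a median of 0.018. Of 9 transcription factors Zkscan3 alone passed, with 2 at an unadjusted p under 0.05 and a median of 0.0046.

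Of the proteases, Ifi30, the lysosomal thiol reductase and the most abundant of that list, was at 2253 ± 70.7 in Ppef2+/+ and 2372 ± 70.7 normalized counts in Ppef2-/- (SD, n = 5, adjusted p = 0.216 from limma), and Dpp7 at 149.4 ± 7.55 and 160.2 ± 7.55 (adjusted p = 0.361). The most abundant hydrolase-related gene, Psap, the precursor of saposins, was at 70031 ± 3254 and 71735 ± 3254 (adjusted p = 0.703). Among membrane genes, the tetraspanin Cd63 was at 54.0 ± 10.8 and 73.9 ± 10.8 (adjusted p = 0.129), Laptm4a at 725.7 ± 24.5 and 674.5 ± 24.5 (adjusted p = 0.142), and Laptm5 at 7763 ± 244.6 and 7324 ± 244.6 (adjusted p = 0.171).

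Of the proton pump, Atp6v0e was at 835.2 ± 24.1 and 776.3 ± 24.1 (adjusted p = 0.121) and Tcirg1 at 1697 ± 28.1 and 1788 ± 28.1 normalized counts (adjusted p = 0.127 from limma). Cd74, the substrate of Ctss, was at 110662 ± 3150 in Ppef2+/+ and 109214 ± 3150 in Ppef2-/- (adjusted p = 0.801), H2-Oa, which restrains peptide exchange, at 1218 ± 40.4 and 1138 ± 40.4 (adjusted p = 0.148), and H2-DMb2 at 609.1 ± 29.8 and 651.5 ± 29.8 (adjusted p = 0.254). Tlr7 was at 42.8 ± 5.29 and 52.8 ± 5.29 (adjusted p = 0.171), Tlr3 at 1966 ± 76.4 and 1857 ± 76.4 (adjusted p = 0.25), their chaperone Unc93b1 at 5396 ± 309.2 and 5506 ± 309.2 (adjusted p = 0.783), and Irf8, the lineage factor of cDC1, at 13561 ± 350.8 and 13337 ± 350.8 (adjusted p = 0.692).

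**Figure D4:**
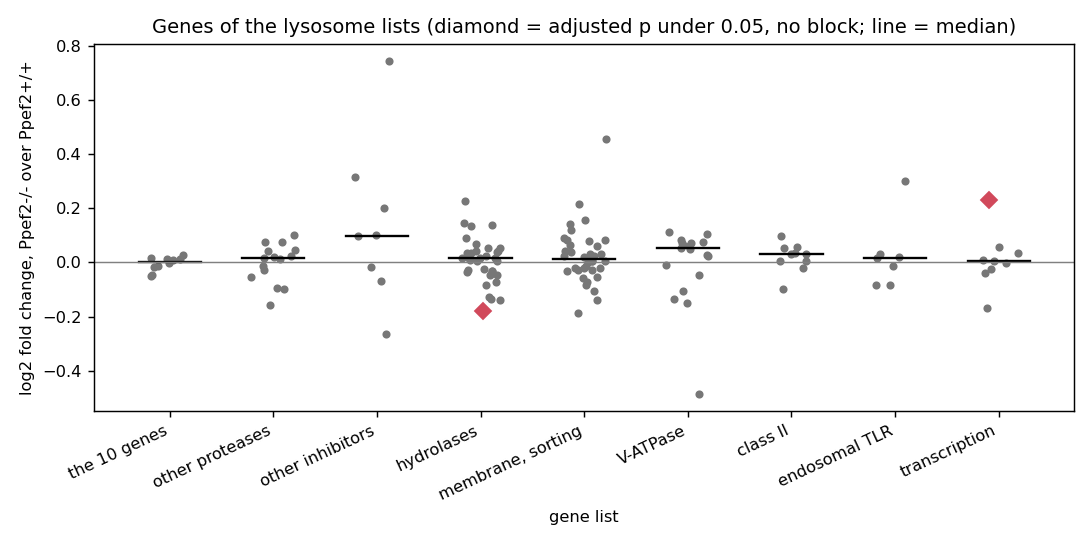
Log2 fold change of Ppef2-/- over Ppef2+/+ (y axis) for the 10 genes and for each list of lysosomal genes, with the median as a line. Diamonds mark the 2 genes with an adjusted p under 0.05 without a block, Man2b2 among hydrolases and Zkscan3 among transcription factors. The horizontal spread of points within a list is only for legibility.

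Since the sort means are missing from the deposited values, they were put back where whole reads could be recovered, for 5 of the 10 members. This was done for genes with values under 1000, of which 9553 of 9581 (99.7%) could be resolved. Over these genes the libraries held 1393273 to 2268736 reads in Ppef2+/+ and 1506211 to 4406301 in Ppef2-/-. The ratio of Ppef2-/- to Ppef2+/+ reads was 2.92, 2.31, 1.60, 0.885 and 0.730 in sorts 1 to 5. The part of depth in the differences within sorts was not tested. Cst3, Ctss, Ctsb, Ctsz and Ctsh were too abundant and are not included.

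Ctsc varied between sorts in both genotypes far more than its deposited values show. After adding them back, Ctsc was at 520.2, 680.3, 987.6, 1125 and 727 in Ppef2+/+ and at 509, 602.1, 1040, 1267 and 645 in Ppef2-/- libraries of sorts 1 to 5. The order of the sorts for Ctsc was the same in both genotypes, with sort 4 highest and sort 1 lowest. Sort means differed 2.32-fold, and 4.397% of the resolved genes had a fold at least as large. The SD was 244.1 in Ppef2+/+ and 325.1 in Ppef2-/-, compared to 47.3 in the deposited values.

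Ctsl differed 2.47-fold between sorts, from a mean of 31.4 in sort 1 to 77.5 in sort 3, and 3.49% of the resolved genes had a fold at least as large. It rests on few reads, with 18 in Ppef2+/+ and 82 in Ppef2-/- libraries of sort 1, and 276 and 392 over all sorts. Lgmn, Ctsd and Ctsa varied less, 1.29-fold, 1.24-fold and 1.23-fold, close to the median of 1.29-fold over all resolved genes. Per kb, Ctsc then ranged from 89.6 to 193.7 in Ppef2+/+ and 87.6 to 218.2 in Ppef2-/-, which overlapped with Ctsa (127.8 to 157.8 and 129.5 to 158) and with Lgmn (74.8 to 108.7 and 72.5 to 103.8). Lgmn in turn overlapped with Ctsd in Ppef2-/- (55.3 to 81.7) but not in Ppef2+/+ (65.8 to 74.2).

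Of the 100 resolved genes of the lysosome lists, 4 had sort means that differed at least 2-fold, compared to 7.77% of all resolved genes. Gla, the lysosomal galactosidase, went from 124 in sort 1 to 445.3 in sort 4, and Irf4 from 240 in sort 1 to 696.1 in sort 4. Tlr7 was lowest in sort 1 (29.1) and highest in sort 3 (64.3). Pla2g15 went the other way, with 51.1 in sort 2 and 23.0 in sort 4.

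Markers of other cells were set beside these sort means. The 14 macrophage and monocyte markers summed to 2271, 2387, 2148, 2412 and 2184 in sorts 1 to 5, a 1.12-fold range. Within this list, Lyz2, its most abundant gene, was at 742, 725.4, 824.8, 910.2 and 771.8, highest in sorts 3 and 4 like Ctsc, whereas C1qa was at 43.1, 39.4, 21.6, 17.4 and 18.4. The 8 resolved pDC markers summed to 1247, 1447, 1266, 1227 and 1537. The 10 resolved cDC2 markers summed to 1042, 1277, 1547, 1561 and 1460, and without Irf4 the other 9 summed to 801.8, 893.9, 883, 865.3 and 1036. Of these, Clec10a (15.4, 13.7, 8.63, 11.8 and 19.7) and Cd209a (149.9, 162.5, 105.2, 120.4 and 116.8) were lower in sorts 3 and 4 than in sorts 1 and 2. Sirpa (273.4, 305.8, 368.3, 360.9 and 418.3), also a cDC2 marker, was higher in sorts 3 and 4 than in sorts 1 and 2. The 3 resolved cDC1 markers summed to 1883, 1847, 1492, 1463 and 1763, a 1.29-fold range, with Zbtb46 at 862.3, 841, 624.5, 565.5 and 742.6 and Batf3 at 410.2, 418.8, 410.1, 363.6 and 476. Their part in the sort means of Ctsc and Ctsl was not tested.

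**Figure D5:**
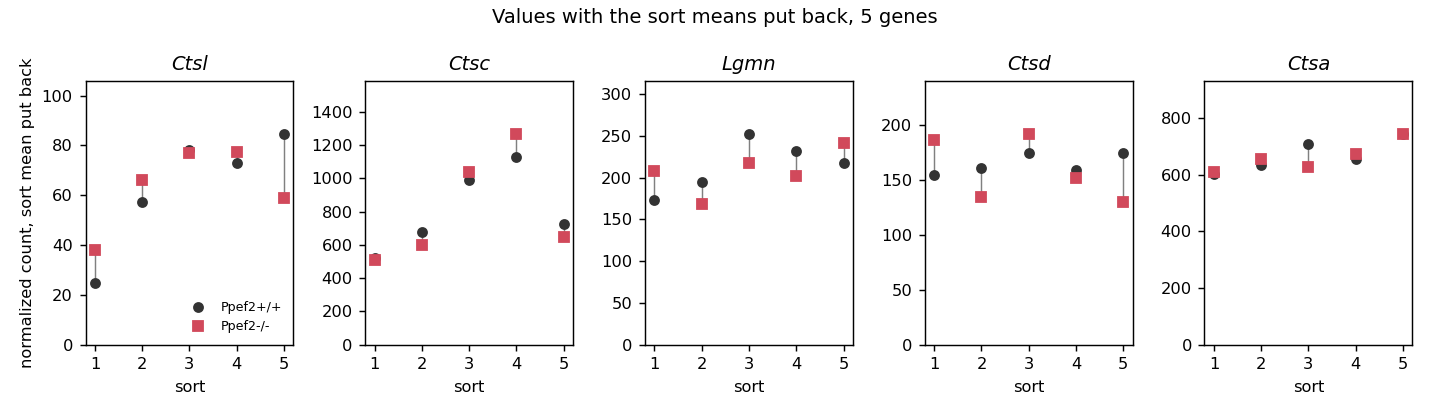
Normalized counts with the sort mean put back (y axis, from 0, own scale for each gene) in sorts 1 to 5 (x axis, sort numbers without an order) for Ctsl, Ctsc, Lgmn, Ctsd and Ctsa in Ppef2+/+ (grey circles) and Ppef2-/- (red squares), with a line joining both libraries of a sort. Ctsc spans 520.2 to 1125 in Ppef2+/+, with both genotypes moving together.

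The genotype difference remained within the spread of these values. For the 5 members, 25 pairs of libraries could be compared by their reads, and in 5 of them the 95% interval of the ratio (exact Clopper-Pearson, counting error only) left out 1. Spread between pools of mice is not part of these intervals. The share of such pairs over all resolved genes was not computed, so this count cannot be set against it. Ctsc was lower in Ppef2-/- in sort 2 (ratio 0.885, interval 0.794 to 0.987) and in sort 5 (0.887, 0.788 to 0.998), but higher in sort 4 (1.13, 1.04 to 1.22). Ctsd was lower in sort 5 (0.746, 0.575 to 0.964) and Ctsa in sort 3 (0.887, 0.787 to 1.00).

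Ctsl with its few reads had ratios from 0.696 in sort 5 to 1.55 in sort 1, and the intervals of these sorts were 0.470 to 1.015 and 0.920 to 2.74, so that a change of this size was not detectable at this depth. All 5 members had sorts on both sides of 1, and the exact two-sided test within sorts gave p-values from 0.625 to 1. In limma on these values, 0 of 5 members had an adjusted p or an unadjusted p under 0.05, with or without the block. Of all 9553 resolved genes, 269 had an unadjusted p under 0.05 without the block and 420 with it. An adjusted p under 0.05 was reached by 0 genes without the block and 1 with it. As so few genes passed, 0 of 5 does not set the members apart from other genes.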

How the data were processed

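mRNA of sorted splenic CD8+ cDC1 was sequenced in 10 libraries. Single-end reads of 50 bp were mapped by the authors to mm10 (HISAT in the paper's methods, TopHat2 2.0.3 in the submitters' processing notes), counted reads per RefSeq gene in Partek 6.6, normalized with DESeq2, set values below 1 to 1 and removed genes with both genotype means under 10. The deposited values are this normalized signal, not raw counts, and their sort means had been removed by a step that the sources do not name. All columns were used (0 left out).

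Differences were tested with limma 3.58.1 (R 4.3.3), two-sided, with a mean trend, on log2(value + 1), with Benjamini-Hochberg adjustment over all 10767 genes and, like the study's model, no sort term. Because sort means are missing, p-values without the block are too small. The sort numbers equal the replicate numbers, and the cell type labels name no sort. Their pairing of the libraries rests on the values, as deviations of both libraries of a sort mirror each other. Whether sorts were separate days is not given in the sources used here. Reads were recovered as whole multiples of the value of 1 read (0.464 to 1.50 normalized counts), chosen out of 870 pairs of steps per sort on 557 genes with a mean under 16. A gene counted as resolved where 1 set of whole reads fitted all its values within the rounding of the deposited digits. This and the models were tested on simulated data. Members, gene lists and tests were chosen with earlier results of these data known. Named genes are the members and, per list, those with an adjusted p under 0.05, otherwise the 2 with the lowest p, and the most abundant. Serpina3f and Serpina3g values per library, and genes named by their sort means, were chosen after values were seen. Of the 5 genes nearest to the members in their differences over sorts, 1 is not reported here.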

Additional observations from a re-analysis of the deposited data

Results flagged for a closer look

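Ctsa in sort 3 stood apart from the other sorts. The Ppef2+/+ library of sort 3 had 706.1 normalized counts against 655.1 to 665.4 in the other Ppef2+/+ libraries, and the Ppef2-/- library had 625.8 against 666.5 to 676.8. Since the deposited values mirror each other, these are a single observation. The gap was 0.797 of the range in both genotypes. With the sort means put back, Ctsa was at 708 and 627.6 in this sort and no longer stood apart in either genotype. In 30 such groups of 5 libraries, about 1 in 20 is flagged by chance.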

How the results depend on the processing

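No member had an adjusted p under 0.05 in limma in any of the alternatives: pseudocounts of 0.5 and 10, a minimum mean of 50, the replicate block (0 members), both rescalings, no trend, linear values, each library or sort left out, and, chosen after seeing the data, the sort means put back. Of the lysosome lists, 2 genes passed, 3 on the linear scale, 0 with the replicate block, 0 with the sort means put back with or without the block (100 genes tested), and 0 to 2 when a library or a sort was left out. Over all genes, 103 passed, 193 without a trend, 183 on the linear scale, 1 with the replicate block and 0 to 192 with a library or sort left out. Of the 9553 genes with the sort means put back, 0 passed without the block and 1 with it. With the sort means put back, the log2 fold change of Ctsl turned to 0.070 and that of Ctsc to −0.027, with or without the block. This step left the genotype means as they were. Ctsl stayed at 63.5 in Ppef2+/+ and 63.4 in Ppef2-/-, and Ctsc at 807.9 and 812.6. Only the sort levels at which log2 was taken differed. Leaving out a library or both libraries of a sort gave log2 fold changes of −0.074 to 0.018 for Ctss, −0.081 to 0.14 for Ctsl, −0.020 to 0.037 for Ctsh, −0.053 to 0.047 for Ctsc, −0.12 to 0.0033 for Lgmn, −0.13 to 0.037 for Ctsd, −0.027 to 0.028 for Ctsa and −0.021 to 0.078 for Cst3, so that each turned its sign in at least 1 of these fits. Ctsb (0.0018 to 0.049) and Ctsz (7.0e-05 to 0.043) kept it. Levels per kb moved beyond 1 SD in 14 of 20 cases with the longest transcript and in 16 of 20 with the RefSeq-linked one, and in 0 of 20 with equal totals.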
